A study of Sus scrofa with 32 samples.

Results

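Gene expression in the testis was compared between boars of the High AS and the Low AS group that had all eaten chicory. AS stands for androstenone and skatole in the labels, and the groups were taken from the labels' AS group and diet. There were 7 High AS and 7 Low AS pigs, 14 of the 32 pigs of the series. All 14 were Danish Duroc crosses with Landrace/Yorkshire, slaughtered after 3 days on a diet with 15% chicory. The sources used here give a slaughter weight of about 100 kg, while the carcass weights in the labels run from 76.2 to 101.9 kg. How these weights relate is not stated. A single further pig on chicory had no AS group and was left out. The pigs differed in their AS group and shared the chicory, so the comparison says nothing by itself about chicory. The labels also give the sire's breeding value for androstenone. It averaged 0.167 (-0.1 to 0.36) in High AS and -0.136 (-0.44 to 0.26) in Low AS pigs, and its part was not tested.

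Androstenone is a 16-androstene steroid that the Leydig cells of the boar testis make alongside testosterone, and that collects in fat, where it gives boar taint. Both kinds of steroid start from cholesterol, which CYP11A1 cleaves to pregnenolone in the mitochondrion. CYP17A1 with cytochrome b5 then leads pregnenolone to androgens or to 16-androstenes, and hydroxysteroid dehydrogenases and 5-alpha-reductases finish both. Chicory root is rich in inulin and is fed to lower skatole, a product of gut bacteria that the liver clears.

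Androstenone ran from 1.12 to 5.9 mg/kg in the High AS pigs, with a median of 1.94, and from 0 to 1.07 mg/kg in the Low AS pigs, with a median of 0.52. The AS label covers androstenone as well as skatole, so no test of this trait is given. The labels hold no skatole value for most of the 14 pigs. Carcass weight averaged 91.8 kg ± 6.91 (SD, n = 6) in High AS and 86.4 kg ± 5.62 (SD, n = 7) in Low AS pigs, a difference of 5.35 kg (two-sided exact permutation p = 0.157). The 14 pigs came from 10 sows, of which 2 had pigs in both groups. Each pig gave 1 library, and p-values measure the spread between these libraries, which differ in pig, sow, lane, index and library name.

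Counts in genes ranged from 2268778 to 20349500 per High AS pig and from 1855174 to 5993637 per Low AS pig. The library names in the labels form a numbered and a plain set, and 3 High AS pigs (replicates 2, 5 and 6) had numbered libraries while all 7 Low AS pigs had plain ones. The 3 numbered libraries were the deepest of the 14, at 11492649 counts or more, and the plain libraries are 4 High AS against 7 Low AS pigs. Low AS replicate 1, the library of lowest depth, stood apart from the other 13 on the first principal component, which held 42.2% of the variance, and the numbered libraries stood at the low end of the second, which held 14.2%. Low AS replicate 1 summed to 4762 CPM (counts scaled to library size, per 1000000) over 24 marker genes of elongating spermatids, where the other Low AS pigs had 34219 to 49217. Values are for all 14 libraries unless the plain libraries or the fit without that pig are named. Markers of Leydig cells (10 genes), Sertoli cells (14 genes) and elongating spermatids (24 genes), the defining cells of a testis, all had counts.

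No gene passed the test between High and Low AS pigs. The quasi-likelihood test of edgeR called 0 of 11849 genes at an adjusted p under 0.05 (0% called), and the smallest adjusted p was 0.239. At an unadjusted p under 0.05 there were 1790 genes, 15.1% of those tested, of which 666 (5.62%) were higher and 1124 (9.49%) lower in High AS. Over all genes the median log2 fold was -0.00, and 49.6% had a higher estimate in High AS. By limma voom 0 genes were called and by DESeq2 47 were. Both were fitted to all 14 libraries with no library term, and neither was run on the plain libraries alone. Genes described below that DESeq2 called included RNF13 (adjusted p = 0.0091), CENPJ, QPCT and PWP1 (each 0.0207), PRM2, DES and FSHR (each 0.041), and POSTN and HSD17B3 (each 0.0435). In the plain libraries edgeR called 0 of 11941 genes, and the smallest adjusted p was 0.804. There 532 genes (4.46%) had an unadjusted p under 0.05, 162 (1.36%) higher and 370 (3.1%) lower. With the library set as a term in the fit of all 14 pigs, 175 genes were higher and 489 lower at that p.

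**Figure D1:**
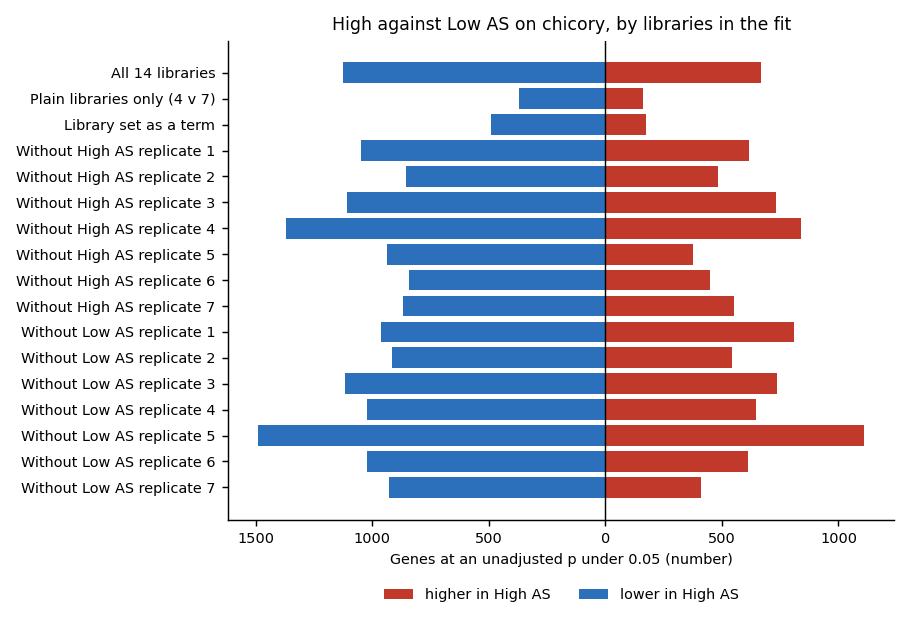
Number of genes at an unadjusted p under 0.05, higher (right) or lower (left) in High AS, for all 14 libraries, the plain libraries, a fit with the library set as a term, and fits without 1 pig each. The plain libraries gave 162 higher and 370 lower genes against 666 and 1124 with all libraries.

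The plot of gene numbers by the libraries in the fit shows that the number at a small p changed with the libraries used. The plain libraries also hold fewer High AS pigs (4 rather than 7). Library set and number of pigs therefore cannot be told apart in that fit. Leaving out 1 pig gave 376 to 1110 higher and 840 to 1488 lower genes, the lowest number of higher genes without High AS replicate 5, a numbered library, and the highest without Low AS replicate 5. Without High AS replicate 4 there were 9 genes past the adjusted threshold, and without any other single pig 0. Numbered and plain libraries differed in 3315 of 12733 genes (26%) across the 31 pigs with an AS group. Library set and AS group overlap in these pigs. The part of the library set in the genes below was examined gene by gene only through the plain libraries and the library term. No Low AS chicory pig had a numbered library. In the 14 pigs the library term therefore leaves the AS estimate to the plain libraries, and these fits are not separate checks. Among the 14 pigs, index 4 occurs only in Low AS replicates 5, 6 and 7. Lane 7 occurs only in High AS replicates 2 and 5. Index 1 occurs only in the numbered libraries, all of them High AS. The index was fitted as a term in an alternative, and lane was not fitted. With the index as a term the AS estimate rests on index 2 and 3. These are High AS replicates 1, 3, 4 and 7 and Low AS replicates 1, 2, 3 and 4.

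The genes of smallest p with a higher level in High AS pigs included genes of cell structure, transcription and sperm chromatin. CENPJ, a protein of centriole assembly, had 110, 167 and 198 CPM (lowest, median and highest) in High AS and 67.0, 99.4 and 112 CPM in Low AS pigs, and 6 of 7 High AS pigs lay above every Low AS pig. Its log2 fold was 0.73 (SE 0.16), and it was 0.76 (SE 0.20) in the plain libraries. PRM2, a protamine that packs sperm DNA, had 659, 2031 and 3868 CPM in High AS and 148, 904 and 1175 CPM in Low AS pigs. Again 6 of 7 High AS pigs lay above all Low AS pigs, with a log2 fold of 1.53 (SE 0.40), 1.18 (SE 0.45) in the plain libraries and 1.34 without Low AS replicate 1.

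DES, the intermediate filament desmin of muscle and peritubular cells, had 11.5, 21.0 and 33.6 CPM in High AS and 4.03, 7.77 and 15.5 CPM in Low AS pigs, and a log2 fold of 1.16 (SE 0.30). The groups overlapped in 1 High AS pig. Among plain libraries the fold was 0.92 (SE 0.36), and numbered libraries were 0.999 higher than plain ones on the log2 scale over 31 pigs. IER2, an immediate early gene, had a log2 fold of 1.62 (SE 0.38), with 6.17 to 6.59 CPM in the numbered and 2.59 to 5.75 CPM in the plain High AS libraries against 0 to 2.87 CPM in Low AS pigs. It did not pass the low-count filter among plain libraries and was not tested there. CREBZF, a transcription factor of the leucine zipper class, had 6.87, 9.61 and 14.5 CPM in High AS and 3.67, 4.91 and 6.85 CPM in Low AS pigs. Its groups did not overlap, by a margin of 0.0247 CPM, and its log2 fold was 0.92 (SE 0.24).

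The other 5 genes of this direction were the RAB8 activator RAB3IP, the RNA-binding protein MEX3D, the Ras-association protein RASSF7 and the developmental transcription factors TBR1 and VAX2. Their log2 folds ran from 0.65 (RAB3IP, SE 0.17) to 1.49 (TBR1, SE 0.39), and in plain libraries from 0.45 (RAB3IP, SE 0.20) to 1.09 (VAX2, SE 0.48). All 10 had an adjusted p of 0.239 in edgeR's quasi-likelihood test.

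Genes with a lower level in High AS pigs were led by RNF13, a ubiquitin ligase of endosomal membranes. It had 8.10, 13.7 and 15.1 CPM in High AS and 14.2, 26.5 and 32.3 CPM in Low AS pigs, so that only Low AS replicate 5, the lowest of its group, lay within the High AS range. The log2 fold was -1.06 (SE 0.21), and -1.07 (SE 0.25) in the plain libraries, at an unadjusted p of 6.95e-05 and 0.000624. QPCT, which forms pyroglutamate at the start of peptides, had 1.45, 2.70 and 3.63 CPM in High AS and 2.36, 6.56 and 8.39 CPM in Low AS pigs. Low AS replicate 5 was again the exception, and the log2 fold was -1.34 (SE 0.29). In the plain libraries QPCT had -1.29 (SE 0.38). Both genes were picked in pigs that include the plain libraries, so a similar size there is no independent support.

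FADS2, the delta-6 desaturase of polyunsaturated fatty acids, had 6.05, 12.3 and 31.8 CPM in High AS and 18.4, 41.5 and 62.1 CPM in Low AS pigs, and a log2 fold of -1.36 (SE 0.33) and in plain libraries -1.02 (SE 0.38). Here 5 of 7 High AS pigs lay below all Low AS pigs. Several other genes act on RNA and ribosomes. LAS1L, which cleaves pre-ribosomal RNA, had a log2 fold of -1.03 (SE 0.24), RNPS1, a splicing factor of the exon junction complex, -0.81 (SE 0.20), and PWP1, a ribosome assembly protein, -0.60 (SE 0.14). PWP1 had 34.1, 43.0 and 50.8 CPM in High AS and 53.2, 69.5 and 78.1 CPM in Low AS pigs, with no overlap, and kept -0.60 (SE 0.19) in plain libraries.

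SLC41A3, a magnesium transporter, MCRS1, a nuclear and centrosomal protein, TYRO3, a receptor kinase for phagocytic uptake, and ENTREP1 had log2 fold changes, in that order, of -1.16 (SE 0.27), -1.07 (SE 0.25), -0.86 (SE 0.21) and -1.45 (SE 0.33). In the plain libraries these were -0.82 (SE 0.27), -0.82 (SE 0.30), -0.65 (SE 0.25) and -1.25 (SE 0.45). All 10 lower genes had an adjusted p of 0.239.

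**Figure D2:**
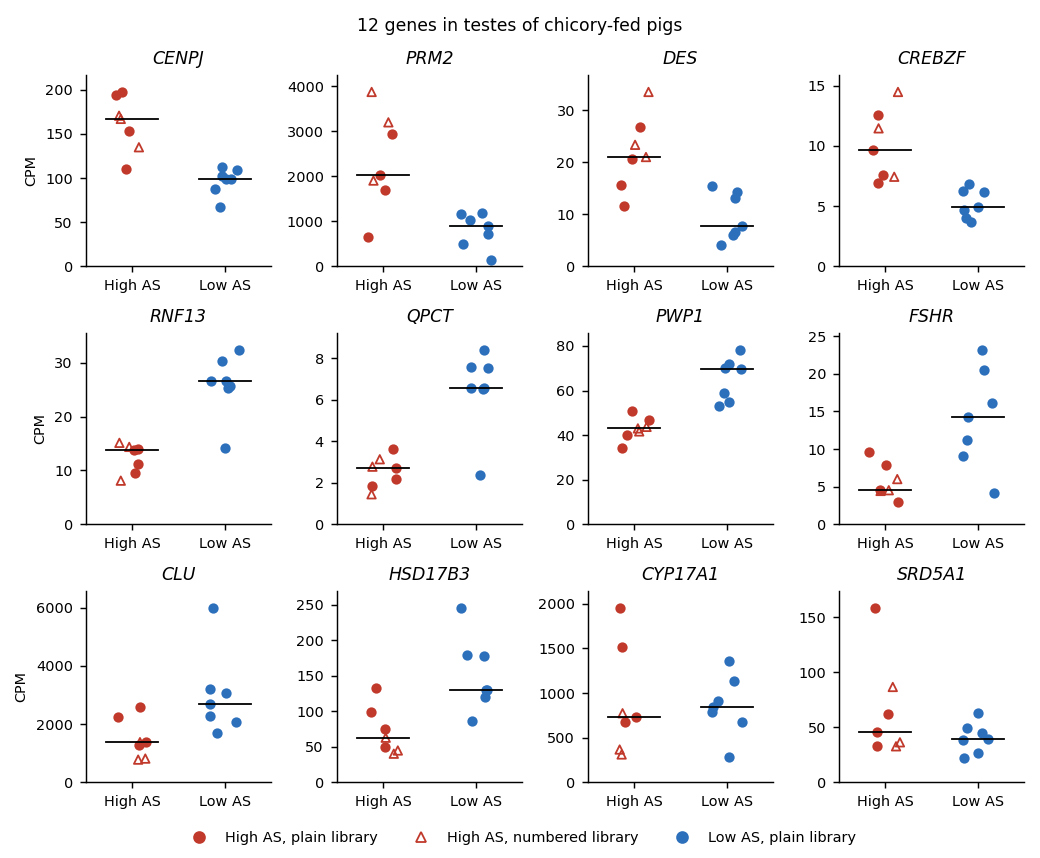
CPM of 12 genes in each of the 14 pigs, with a line at the group median; filled circles are plain libraries and open triangles numbered ones. CREBZF and PWP1 do not overlap between groups, while CYP17A1 and SRD5A1 do.

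Groups did not overlap in 13 of 11849 genes (0.11%), 5 with all High AS pigs above (0.0422%) and 8 with all High AS pigs below (0.0675%). In the plain libraries, with 4 pigs against 7, this was so of 49 of 11941 genes (0.41%). Smaller groups separate more easily, so these shares cannot be set against each other. The share that chance alone would give was not worked out, so the genes named here are a description. Beside CREBZF, the higher genes were ATL3, an atlastin that shapes the endoplasmic reticulum, PDZD9 and a pair of identifiers without a symbol. ATL3 had 237 to 321 CPM in High AS and 88.6 to 233 CPM in Low AS pigs, and PDZD9 had 573 to 839 CPM against 123 to 550 CPM. In both genes the lowest Low AS value was that of replicate 1, and without that pig the log2 folds went from 0.52 to 0.40 and from 0.74 to 0.57.

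Beside PWP1, the lower genes without overlap included the lysosomal thioesterase PPT2, the RNA helicase EIF4A3 of the exon junction complex and the topoisomerase TOP3B. PPT2 had 3.38 to 7.32 CPM in High AS and 7.42 to 15.1 CPM in Low AS pigs, and a log2 fold of -0.96 (SE 0.25). EIF4A3 had 30.2 to 39.3 CPM against 39.9 to 76.0 CPM, a log2 fold of -0.58 (SE 0.16). TOP3B had a log2 fold of -0.46 (SE 0.16). The nucleotide hydrolase DCTPP1 and the splicing factor PRPF19, named because they were in this small set, had -0.39 (SE 0.14) and -0.38 (SE 0.13). A further gene of the 8 had no symbol.

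The enzymes that make androgens and 16-androstenes showed no shared direction. Of 8 tested, 5 had a higher estimate in High AS, 0 were higher and 1 was lower at an unadjusted p under 0.05 (15.1% of all genes were at that p), and the median log2 fold was 0.06 against -0.00 over all genes. In the plain libraries the median was 0.22. CYP17A1, which makes both androgens and 16-androstenes, had 313, 738 and 1951 CPM in High AS and 282, 849 and 1365 CPM in Low AS pigs. The groups overlapped, with 2 High AS pigs above all Low AS pigs, and the log2 fold was 0.07 (SE 0.38) with all pigs and 0.50 (SE 0.38) in plain libraries. The numbered High AS libraries held 313 to 774 CPM, and across 31 pigs numbered libraries were 1.71 lower in CYP17A1 than plain ones on the log2 scale.

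CYP11A1, the side-chain cleavage enzyme, and CYB5A, the cytochrome b5 that steers CYP17A1, had log2 folds of 0.05 (SE 0.37) and -0.03 (SE 0.31), and 0.40 (SE 0.39) and -0.00 (SE 0.39) in plain libraries. HSD17B3, which reduces androstenedione to testosterone, was the enzyme with the smallest p. It had 40.4, 62.9 and 132 CPM in High AS and 86.3, 131 and 245 CPM in Low AS pigs. Of the 7 High AS pigs 5 lay below all Low AS pigs, the 3 numbered libraries at 40.4 to 62.9 CPM among them, and the log2 fold was -1.09 (SE 0.27, adjusted p = 0.239 in edgeR's quasi-likelihood test). In the plain libraries the fold was -0.77 (SE 0.30, unadjusted p = 0.0203), and without Low AS replicate 1 it was -0.94.

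SRD5A1, a steroid 5-alpha-reductase, had 32.8, 45.4 and 158 CPM in High AS and 21.9, 39.4 and 62.9 CPM in Low AS pigs, and a log2 fold of 0.67 (SE 0.33) and in plain libraries 0.88 (SE 0.37). The groups overlapped except for 2 High AS pigs. FDXR, the reductase that feeds electrons to CYP11A1, had -0.35 (SE 0.33). Of 15 other hydroxysteroid dehydrogenases tested, 4 had a higher estimate and 3 were lower at an unadjusted p under 0.05 (9.49% of all genes were), with a median of -0.15. In plain libraries 8 had a higher estimate, 1 was higher and 0 were lower at that p, and the median was 0.06. HSD17B6 and HSD17B12 had log2 folds of -1.14 (SE 0.32) and -0.87 (SE 0.25), and -0.68 (SE 0.34) and -0.58 (SE 0.28) in plain libraries. HSD17B10 had -0.66 (SE 0.25) and HSD17B4 -0.31 (SE 0.20).

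Leydig cell markers had 5 of 9 tested higher and a median log2 fold of 0.02 with all libraries. In plain libraries 6 of 10 were higher with a median of 0.23, and without Low AS replicate 1 8 of 10 were, with a median of 0.15. Over 31 pigs numbered libraries differed from plain ones by a median of -0.71 in this list. INSL3, the Leydig peptide hormone, had 214, 556 and 2386 CPM in High AS and 333, 769 and 1336 CPM in Low AS pigs, and a log2 fold of 0.02 (SE 0.47), with 0.52 (SE 0.48) in plain libraries. NR5A1, the steroidogenic transcription factor, had -0.39 (SE 0.39) and VCAM1, an adhesion molecule, 0.57 (SE 0.40). LHCGR, the luteinizing hormone receptor, did not pass the low-count filter with all 14 libraries. It had 1.16, 2.45 and 8.69 CPM in High AS and 0.262, 1.95 and 6.85 CPM in Low AS pigs, and in plain libraries, where it was tested, its log2 fold was 1.05 (SE 0.58). Of 13 genes of gonadotropin signalling and Leydig transcription 5 had a higher estimate, and the median was -0.03. In plain libraries 5 of 14 were higher with a median of -0.20, and without Low AS replicate 1 10 of 14 with 0.04. With all 14 libraries the orphan receptor NR0B1, a repressor of steroidogenesis, had the smallest p in this list, with a log2 fold of -0.78 (SE 0.29). In bulk tissue, fewer cells of a type and less RNA per cell cannot be told apart.

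Genes of steroid sulfation and of cholesterol handling had mostly lower estimates in High AS pigs, by amounts that shrank among plain libraries. Of 8 sulfation and conjugation genes 2 had a higher estimate, and the median log2 fold was -0.60, with -0.26 in plain libraries. ABCC1, an exporter of conjugates, and SLC35B2, which carries the sulfate donor into the Golgi, had -1.03 (SE 0.35) and -0.79 (SE 0.28), and -0.67 (SE 0.39) and -0.42 (SE 0.29) in plain libraries. Of 16 genes of cholesterol uptake and storage 2 had a higher estimate and 3 were lower at an unadjusted p under 0.05 (9.49% of all genes were), with a median of -0.31. In plain libraries 4 had a higher estimate, 0 were lower at that p, and the median was -0.20. NPC1 and NPC2, which release cholesterol from lysosomes, had -0.83 (SE 0.37) and -0.66 (SE 0.28). SOAT1, which stores cholesterol as esters, had 0.25 (SE 0.17).

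Cholesterol synthesis had 11 of 19 higher and a median of 0.08 with all libraries. In plain libraries 16 of 19 were higher with a median of 0.14, where 46.6% of all genes were higher, and 0 were at an unadjusted p under 0.05. HMGCS1, a synthase at its start, had a log2 fold of 0.17 (SE 0.18). SCAP, the escort of the sterol-sensing factor SREBP, had -0.53 (SE 0.20), and -0.27 (SE 0.22) in plain libraries. CYP51A1, the lanosterol demethylase, had 0.33 (SE 0.23) and its lowest value, 165 CPM, in Low AS replicate 1.

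The enzymes that clear foreign compounds had 6 of 14 higher and a median of -0.14. CYP2E1, which takes part in skatole breakdown in the pig liver, had 4.84, 6.86 and 12.2 CPM in High AS and 2.01, 3.99 and 7.32 CPM in Low AS testes. It had a log2 fold of 0.69 (SE 0.29), with 0.40 (SE 0.36) in plain libraries. CYP4B1, a fatty acid hydroxylase, had 0.67 (SE 0.47) with all pigs and 1.13 (SE 0.50) in plain libraries. ALDH2, the mitochondrial aldehyde dehydrogenase, and FMO1, a flavin monooxygenase, had -0.68 (SE 0.23) and -1.64 (SE 0.59). FMO1 ranged from 6.48 to 48.1 CPM in High AS and from 7.29 to 194 CPM in Low AS pigs.

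Glutathione and NRF2 response genes had 5 of 19 higher, with a median of -0.20 and -0.09 in plain libraries. MGST3, GSTA4 and PRDX6, enzymes that detoxify with glutathione, had log2 fold changes of -0.62 (SE 0.23), -0.66 (SE 0.26) and -0.49 (SE 0.22). Iron and heme genes had 3 of 18 higher and a median of -0.15, against 7 of 17 and -0.03 in plain libraries. FTL, the ferritin light chain, had -0.02 (SE 0.30), and ABCB10, a transporter of the inner mitochondrial membrane, had -1.17 (SE 0.32), with -1.26 (SE 0.42) in plain libraries. Fatty acid and peroxisome genes had 7 of 24 higher and a median of -0.27, which was -0.21 in plain libraries. ACSL1, which activates fatty acids, stood on the other side at 0.52 (SE 0.21), and ACAA2, a thiolase of beta-oxidation, had -0.54 (SE 0.21).

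Sertoli cells are the support cells of the seminiferous tubule, and with all 14 libraries their markers had the lowest median of the lists with at least 5 tested genes. Other lists lay lower in plain libraries and without Low AS replicate 1. Of 11 tested, 1 had a higher estimate and 5 were lower at an unadjusted p under 0.05 (9.49% of all genes were), and the median log2 fold was -0.63. In plain libraries 1 of 10 had a higher estimate, 2 were lower at that p (3.1% of all genes were), and the median was -0.51. Without Low AS replicate 1 the median was -0.31, with 5 lower at that p (962 of 12007 genes were). Summed over the list of 14, High AS pigs had 1087 to 3080 CPM and Low AS pigs 1961 to 7183 CPM, where the highest was Low AS replicate 1 and the next 3763 CPM.

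FSHR, the receptor for follicle-stimulating hormone, had 3.03, 4.58 and 9.57 CPM in High AS and 4.20, 14.3 and 23.2 CPM in Low AS pigs. Of the Low AS pigs 5 lay above all High AS pigs, and the log2 fold was -1.29 (SE 0.33), with -1.12 (SE 0.43) in plain libraries and -1.15 without Low AS replicate 1. CLDN11, a tight junction protein of the blood-testis barrier, had a log2 fold of -1.09 (SE 0.33), and -0.99 (SE 0.37) in plain libraries. CLU, the secreted chaperone clusterin, had 783, 1381 and 2577 CPM in High AS and 1695, 2697 and 5980 CPM in Low AS pigs, and a log2 fold of -1.002 (SE 0.32) and in plain libraries -0.68 (SE 0.35). INHA, the inhibin alpha subunit, went from -0.63 (SE 0.38) to -0.17 without Low AS replicate 1.

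Late germ cell markers had higher estimates in High AS pigs, in part through Low AS replicate 1. Of 24 markers of elongating spermatids 23 had a higher estimate (49.6% of all genes had), with a median log2 fold of 0.35. Only 1 was higher at an unadjusted p under 0.05 (5.62% of all genes were). The median was 0.46 with 24 of 24 higher in plain libraries, and 0.15 with 20 of 24 higher without Low AS replicate 1. In plain libraries without that pig it was 0.26 with 24 of 24 higher. Their summed level ran from 33994 to 71535 CPM in High AS pigs. Of 21 round spermatid markers 16 were higher, with a median of 0.19. In plain libraries 19 of 21 were higher with a median of 0.30, and without Low AS replicate 1 11 of 21 were, with a median of 0.01. In plain libraries without that pig 18 of 21 were higher with a median of 0.13. SPATA18, a protein of the sperm mitochondrial sheath, had 596 to 862 CPM in High AS and 64.0 to 680 CPM in Low AS pigs, and a log2 fold of 0.71 (SE 0.32) and 0.52 without that pig. ODF1 and ODF2, proteins of the outer dense fibres of the sperm tail, had 0.57 (SE 0.29) and 0.54 (SE 0.27).

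Spermatocyte markers had 13 of 22 higher and a median of 0.08. The meiotic recombination factor MEIOB had 0.44 (SE 0.20), with 82.6 to 118 CPM in the numbered and 57.7 to 73.7 CPM in the plain High AS libraries, and 0.11 (SE 0.21) in plain libraries alone. SYCE1, a part of the synaptonemal complex, had 0.41 (SE 0.19). Spermatogonial markers had 1 of 7 higher, and KIT, the stem cell factor receptor, moved from -0.89 (SE 0.40) to -0.29 without Low AS replicate 1. Mitotic cell cycle genes had 4 of 18 higher and a median of -0.37, with -0.13 in plain libraries. CDK4 had a log2 fold of -0.72 (SE 0.23), CDK1 -0.59 (SE 0.21) and the replication licensing factor MCM2 -0.62 (SE 0.22).

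**Figure D3:**
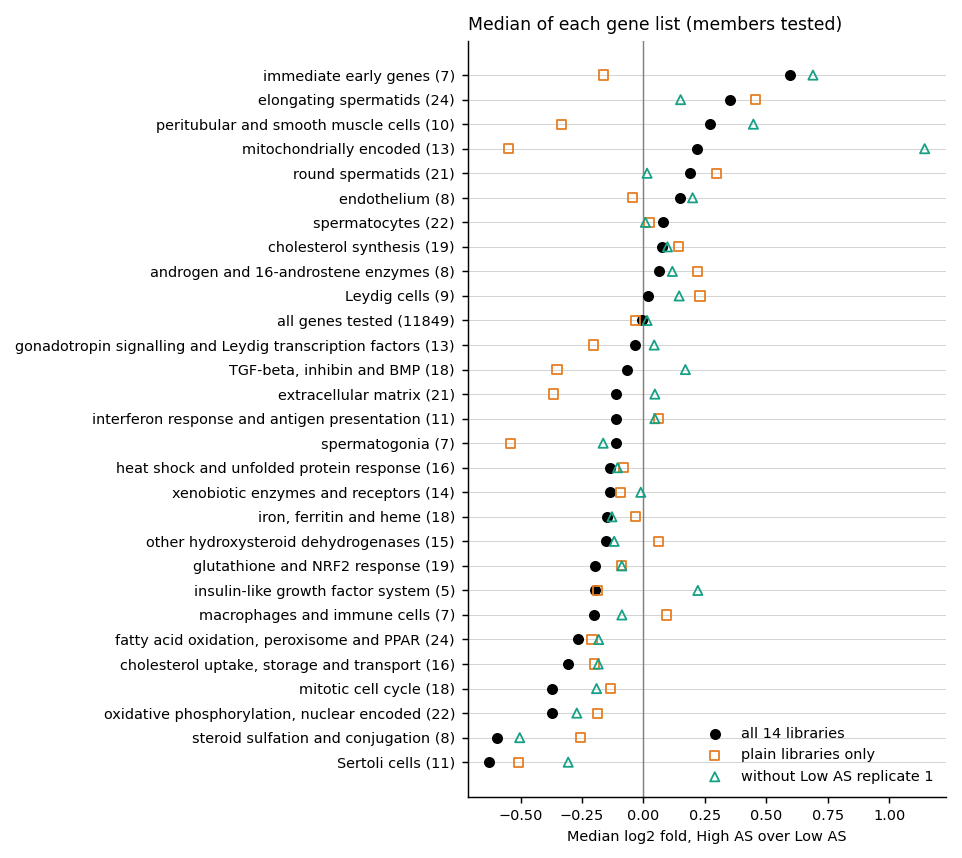
Median log2 fold of High over Low AS for each list with at least 5 tested genes, for all 14 libraries, the plain libraries, and without Low AS replicate 1. Sertoli cells lie lowest in the first setting at -0.63, and the mitochondrially encoded genes lie at 0.22, -0.55 and 1.14 in the 3 settings.

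The plot of list medians shows which groups of genes changed sign with the libraries used. The 13 mitochondrially encoded genes had 12 higher and a median log2 fold of 0.22 with all pigs, but 0 higher and -0.55 in plain libraries, and 13 higher and 1.14 without Low AS replicate 1. In plain libraries without that pig 13 were higher and the median was 0.38. Their summed level was 55100 to 105783 CPM in the numbered High AS libraries, 21497 to 40444 CPM in the plain High AS libraries, 19439 to 25752 CPM in 6 Low AS pigs and 163156 CPM in Low AS replicate 1. Numbered libraries were higher than plain ones by a median of 1.64 over 31 pigs. ND4L, a subunit of complex I, had a log2 fold of 1.20 (SE 0.51) with all pigs and -0.013 (SE 0.50) in plain libraries.

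Nuclear genes of oxidative phosphorylation had 1 of 22 higher, 8 lower at an unadjusted p under 0.05 (9.49% of all genes were), and a median of -0.37. In plain libraries the median was -0.19 with 0 lower at that p, and numbered libraries were lower than plain ones by a median of -0.51. The complex I subunit NDUFB5 had 29.6 to 31.6 CPM in the numbered and 36.7 to 71.7 CPM in the plain High AS libraries against 47.7 to 96.7 CPM in Low AS pigs. Its log2 fold was -0.67 (SE 0.22) with all pigs and -0.38 (SE 0.24) in plain libraries. NDUFA4 and SDHC had -0.70 (SE 0.26) and -0.59 (SE 0.23).

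Immediate early genes had 6 of 7 higher and a median of 0.59, against 2 of 5 and -0.16 in plain libraries and 3 of 5 and 0.28 in plain libraries without Low AS replicate 1. KLF4, a transcription factor that is strong in the testis of mice, had 206 to 304 CPM in the plain High AS libraries, 311 to 404 CPM in the numbered ones, and 109 to 306 CPM in Low AS pigs, and a log2 fold of 0.59 (SE 0.21). Peritubular and smooth muscle markers had 8 of 10 higher and a median of 0.27, against 2 of 10 and -0.33 in plain libraries and 3 of 10 and -0.12 in plain libraries without Low AS replicate 1. MYLK, the kinase of smooth muscle myosin, stood on the other side, at -0.997 (SE 0.28) with all pigs and -0.93 (SE 0.38) in plain libraries. CNN1, a calponin, had 0.68 (SE 0.33) and 0.18 (SE 0.40).

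Other cells of the testis gave few genes. CD4, a receptor of T cells and macrophages, had 0.432, 2.71 and 6.66 CPM in High AS and 4.06, 7.16 and 12.1 CPM in Low AS pigs, and a log2 fold of -1.21 (SE 0.40) and in plain libraries -1.23 (SE 0.55). MRC1, the macrophage mannose receptor, had -0.66 (SE 0.24). The whole list of macrophage and immune genes had 3 of 7 higher and summed to 53.5 to 111 CPM in High AS and 59.8 to 119 CPM in Low AS pigs. Endothelial markers had 4 of 8 higher, with FLT1, a receptor for vascular endothelial growth factor, at 0.52 (SE 0.24), and blood cell genes 1 of 2. Genes of the epididymis and rete testis had 3 of 3 higher, with RNASE10 and DEFB129 at 0 counts in all 14 pigs, and summed to 23.3 to 59.0 CPM in High AS and 17.8 to 48.8 CPM in Low AS pigs.

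Among signalling, matrix and stress genes, POSTN, the matrix protein periostin, had 2.89, 4.91 and 20.6 CPM in High AS and 13.3, 18.2 and 23.2 CPM in Low AS pigs. Of 7 High AS pigs 6 lay below all Low AS pigs, and the log2 fold was -1.39 (SE 0.36), with -0.98 (SE 0.40) in plain libraries. Extracellular matrix genes as a list had 8 of 21 higher and a median of -0.11, against 4 of 21 and -0.37 in plain libraries. BMP4 had 0.65 (SE 0.29) and its receptor BMPR1B -0.72 (SE 0.32) among 18 genes of the TGF-beta family, of which 7 were higher. The IGF2 clearance receptor IGF2R had -0.72 (SE 0.33) among 5 genes of the insulin-like growth factor system, of which 1 was higher. Without Low AS replicate 1 the estimates were higher in 12 of 18 and in 4 of 5 genes of these lists, and in 12 of 21 matrix genes.

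Heat shock and unfolded protein genes had 5 of 16 higher, 1 higher and 4 lower at an unadjusted p under 0.05 (5.62% and 9.49% of all genes were), and a median of -0.14. In plain libraries 0 were at that p in either direction. The chaperone HSP90AB1 had 277 to 493 CPM in High AS and 343 to 961 CPM in Low AS pigs, and a log2 fold of -0.69 (SE 0.22), and HSPA5, the chaperone of the endoplasmic reticulum, had -0.45 (SE 0.19). Interferon and antigen presentation genes had 5 of 11 higher and a median of -0.11. IRF7, a transcription factor of the interferon response, had 0.46 (SE 0.21), while PSMB8, PSMB9 and TAP1 had 0 counts in all 14 pigs.

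Within the same pigs, androstenone itself was fitted in place of the group, as the log2 of its concentration plus 0.5 mg/kg. A slope is then the log2 change in expression per doubling of that sum. By edgeR's quasi-likelihood test 4 of 11849 genes passed (0.0338%). SRD5A1 rose with androstenone by 0.59 (SE 0.10, adjusted p = 0.0435) and MGARP, a mitochondrial protein of steroid-producing cells, by 0.86 (SE 0.14, adjusted p = 0.042). ABCB10 had a slope of -0.66 (SE 0.11, adjusted p = 0.042). The identifier ENSSSCG00000030872, which has no symbol, had a slope of 0.90 (SE 0.14, adjusted p = 0.0294).

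**Figure D4:**
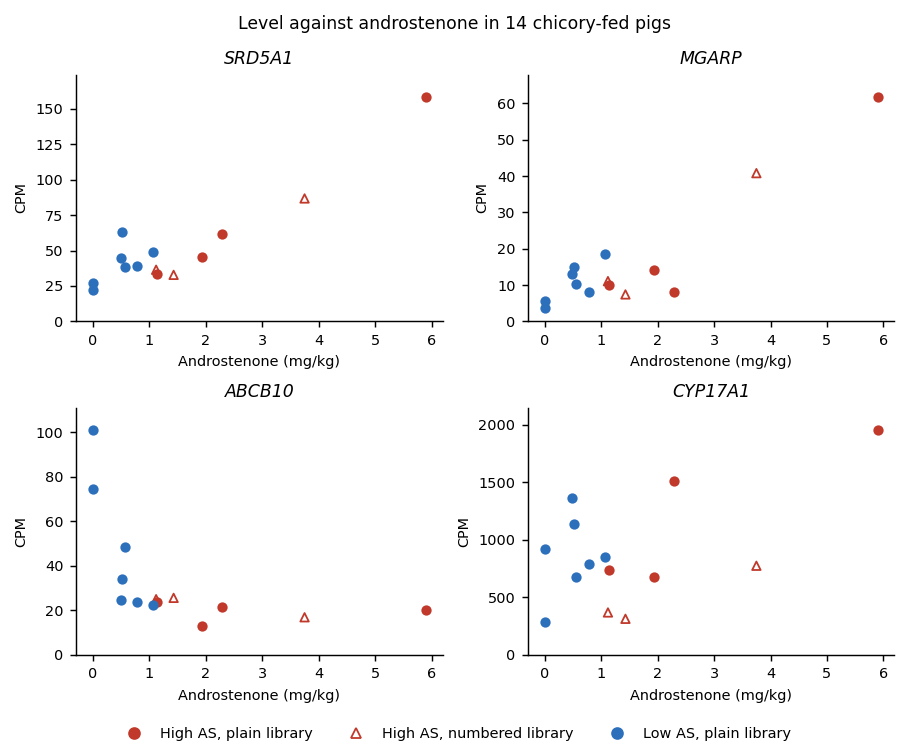
CPM of SRD5A1, MGARP, ABCB10 and CYP17A1 against androstenone (mg/kg) in the 14 pigs, by AS group and library set. SRD5A1 and MGARP are highest in the High AS pigs with 5.9 and 3.75 mg/kg, and ABCB10 is highest in the Low AS pigs with 0 mg/kg.

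The plot of levels against androstenone shows where these slopes came from. SRD5A1 had 158 CPM in the pig with 5.9 mg/kg (High AS replicate 3) and 86.7 CPM in the pig with 3.75 mg/kg (High AS replicate 2), while the Low AS pigs with 0 mg/kg had 21.9 and 27.1 CPM and the other 10 pigs 32.8 to 62.9 CPM. MGARP had 61.8 and 40.8 CPM in the same High AS pigs and 3.74 and 5.73 CPM in the Low AS pigs with 0 mg/kg. ABCB10 had 101 and 74.6 CPM in the Low AS pigs with 0 mg/kg and 12.97 to 48.5 CPM in the other 12. The Low AS pigs with 0 mg/kg had index 4 libraries, and the part of the index in these slopes was not tested.

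Leaving out 1 pig at a time, SRD5A1 stayed past the threshold in 4 of 14 fits, MGARP and ABCB10 in 5 each and the unnamed gene in 6. Without High AS replicate 3 the slopes of SRD5A1, MGARP and the unnamed gene were 0.44, 0.71 and 0.82, each at an adjusted p of 0.499. Without Low AS replicate 6, a pig with 0 mg/kg, the slope of ABCB10 was -0.53 (adjusted p = 0.629). In plain libraries only the unnamed gene passed (slope 0.99, adjusted p = 0.0485), and with the library set as a term SRD5A1, CYP4B1 and the unnamed gene did. The slopes kept their sign in all 14 fits for each of the 4 genes. CYP17A1 had a slope of 0.28 and HSD17B3 one of -0.37, neither past the threshold.

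Whether the difference between AS groups depended on the diet was asked with 31 pigs, of which 10 High AS and 7 Low AS pigs ate the control diet. The test of the difference between diets called 0 of 12733 genes (0% called) in edgeR, and 457 genes (3.59%) had an unadjusted p under 0.05. By DESeq2 and limma voom 0 genes were called. In the same fit the control diet pigs alone gave 159 genes (1.25%) at that p. Of the genes at an unadjusted p under 0.05 on chicory, 1779 were tested in the control diet pigs, and 50.6% had the same direction there, against 53.0% of all genes. The pigs of the diets were different animals. With plain libraries in the control diet pigs the shares were 58.4% and 56.3%.

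**Figure D5:**
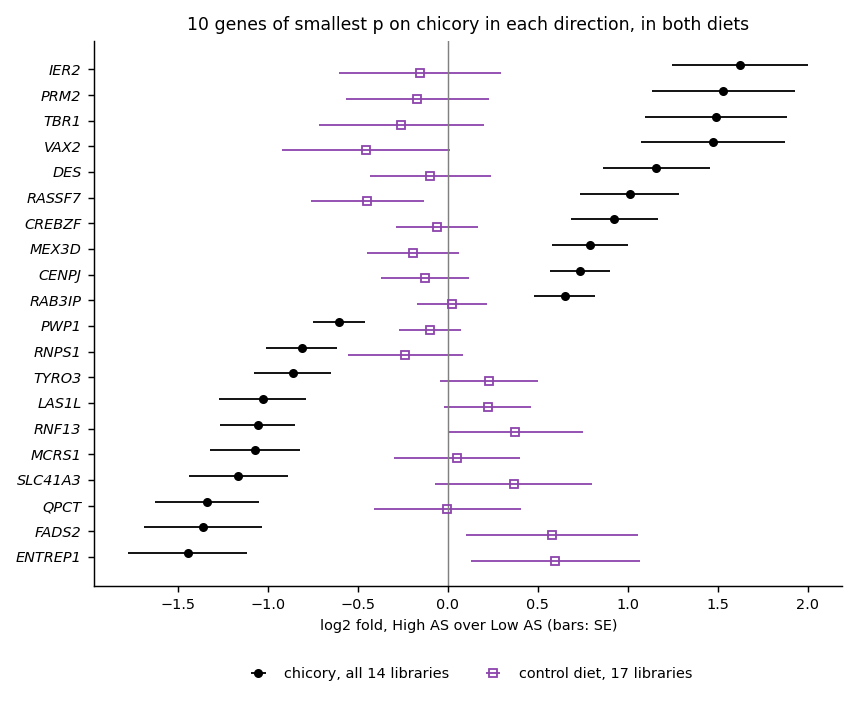
Log2 fold of High over Low AS, with its SE, for the 10 genes with a symbol and the smallest p on chicory in each direction, in the 14 chicory pigs and in 17 pigs on control diet. The genes were chosen for their size on chicory, which makes those values a description.

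Values on control diet were smaller in absolute size for all 20 genes that led the comparison on chicory, as the plot of both diets shows. In the fit of 31 pigs with the library set as a term RNF13 had a log2 fold of -0.63 (SE 0.34) on chicory and 0.41 (SE 0.28) on control diet, a difference of -1.04 (SE 0.43, adjusted p = 0.946 in edgeR's test). The control diet values plotted are from a fit of the 17 control diet pigs alone with no library term. In that fit RNF13 had 0.37 (SE 0.37), PRM2 -0.17 (SE 0.40) and CENPJ -0.13 (SE 0.25). FSHR and HSD17B3, which are not in the plot, had 0.69 (SE 0.49) and 0.18 (SE 0.33). Since these genes were picked on chicory, a smaller value elsewhere is no test of a difference. SRD5A1 and CYP4B1 had 0.32 (SE 0.23) and 0.81 (SE 0.37) in the same fit, on the same side as on chicory.

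Genes with the smallest p for the difference between diets included PAX1, a developmental transcription factor, at 1.69 (SE 0.46), the zinc finger gene ZNF276 at 0.83 (SE 0.24), the ribosomal RNA factor TCOF1 at 0.72 (SE 0.21) and PPP1R12C, a myosin phosphatase subunit, at 0.66 (SE 0.21). PAX1, scaled over 31 pigs, had median levels of 3.02 and 1.78 CPM in High and Low AS pigs on chicory and 1.80 and 3.55 CPM on control diet. On the other side stood SLC4A4, a bicarbonate transporter, at -2.01 (SE 0.53), the phospholipase receptor PLA2R1 at -1.68 (SE 0.51), PVALB, a calcium-binding protein, at -2.36 (SE 0.73) and EPDR1 at -1.13 (SE 0.35). SLC4A4 had medians of 7 and 19.1 CPM in High and Low AS pigs on chicory and 12.6 and 6.59 CPM on control diet, and its log2 fold on chicory was -1.18 (SE 0.36), with -1.74 (SE 0.45) in plain libraries. KRT4 and ALB, too low to be tested on chicory alone, had 3.003 (SE 0.91) and -9.31 (SE 2.05), and ALB was at 1735 CPM in 1 High AS control pig, without which its difference was -2.71.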

How the data were processed

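RNA of the testis was sequenced after TruSeq stranded mRNA preparation, per the labels' protocols. The authors deposited 1 table of raw read counts per pig, of 25322 gene identifiers, and its 5 last rows, which name no gene, stayed out of all sums. The submitters' processing notes name HTSeq 0.6.0, STAR and SAMtools 1.3.1, with Trimmomatic 0.33 and cutadapt 1.8.1. The genome build, the annotation and the strand setting of the counting are not given in the sources used here. Values of overlapping and antisense genes are therefore uncertain. A table of symbols named 11804 identifiers, and POR had none and was not analysed here. In the 14 libraries, reads in no gene made up 20.6% to 39.6% of a library and reads not aligned 6.02% to 10.9%.

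Tests were run in R 4.3.3 with edgeR 4.0.16: filterByExpr, TMM scaling and the quasi-likelihood F test with Benjamini-Hochberg adjustment at 0.05, on the AS groups of the 14 chicory pigs with no further term. Each SE is the size of the log2 fold over the root of its F value. CPM are counts per 1000000 of the TMM-scaled library. The difference between diets was fitted to 31 pigs with the library set as a term. Alternatives used limma voom 3.58.1, DESeq2 1.42.0, other filters and scaling, terms for library set, index, carcass weight (13 pigs) and sow, all 31 pigs, the androstenone slope, and fits without each pig. The smallest chi-square per degree of freedom of 42 library pairs within a group was 7.24, so no pair agreed within sampling noise. The tests were tried on simulated counts first.

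Members, gene lists and named genes were chosen with earlier results of these data known. There were 30 lists with 690 symbols, of which 494 had an identifier and 398 were tested. Genes named were the 10 of smallest p in each direction, 16 genes of steroid and cholesterol metabolism, up to 3 of each list, 5 in each direction for the diet difference, and up to 5 in each direction whose groups did not overlap, with at least 1 CPM. MGARP, LHCGR's untested values, DCTPP1, PRPF19 and the unnamed slope gene were added after their values were seen. A pair of genes that the rule named is not reported here.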

Additional observations from a re-analysis of the deposited data

Results flagged for a closer look

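Each value in this paragraph is the gap between the most extreme pig of a group and its nearest neighbour, divided by the range of the group, on the scale of log2(CPM + 1) for genes and log2 of the summed CPM for lists. Of 326 group values examined, 30 had a gap above Dixon's 95% critical value (9.2%), where chance gives about 1 in 20, and 21 of the 30 were Low AS replicate 1. In that pig the lowest values were those of the spermatid lists, with 0.844 for elongating and 0.769 for round spermatids, and of the genes PRM2 (0.588), PDZD9 (0.803), ATL3 (0.665), CYP51A1 (0.634), SPATA18 (0.75), ACTL9 (0.687), TSSK6 (0.792), ODF2 (0.661), ODF1 (0.698) and EPB42 (0.579). The highest values of the same pig were the lists of mitochondrially encoded genes (0.868), of TGF-beta, inhibin and BMP genes (0.66) and of spermatogonia (0.592), and the genes GSTA4 (0.661), ND6 (0.778), ND4 (0.68), NFKBIA (0.681), KIT (0.596) and UCHL1 (0.57). Low AS replicate 5 was lowest in RNF13 (0.698), QPCT (0.783) and SDHC (0.575). High AS replicate 4 was highest in USP18 (0.864), POSTN (0.586), MYLK (0.608) and the macrophage and immune list (0.58). High AS replicate 7 was lowest in NR5A1 (0.579) and highest in ACTL9 (0.616). What sets these pigs apart was not tested.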

How the results depend on the processing

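No paired analysis was possible because the labels number no replicates, the numbers used here follow accession order, and 2 of 10 sows had pigs in both groups. With sow as a random effect 0 genes passed the adjusted threshold and 2003 had an unadjusted p under 0.05. Of 127 named genes in the chicory comparison 108 kept their direction under every alternative run. Many of these genes were picked for a small p in the same pigs, so a kept direction is no independent support. The cause of the changes below was not tested.

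Genes past the adjusted threshold numbered 47 by DESeq2, 1 with carcass weight as a term, 4 for the androstenone slope and 0 to 9 without 1 pig. Higher and lower genes at an unadjusted p under 0.05 numbered 162 and 370 in plain libraries, 175 and 489 with the library set as a term, 135 and 496 with the index as a term, 350 and 575 for the slope, 218 and 590 with 31 pigs, and 286 and 341 in plain libraries without Low AS replicate 1, an alternative added after seeing the data, as were those of the slope. Without 1 pig they ranged from 376 to 1110 and from 840 to 1488. The slope passed 1 gene in plain libraries and 0 to 5 without 1 pig. For the difference between diets, 1 gene (ITIH1) was called with no low-count filter, and genes at an unadjusted p under 0.05 numbered 938 with no filter, 812 without the library term and 291 to 795 without 1 pig.

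List medians moved with the library set as a term to -0.35 (gonadotropin signalling), 0.022 (immediate early), -0.13 (mitotic) and -0.33 (peritubular). In plain libraries they moved to -0.16 (immediate early), -0.13 (mitotic), -0.54 (spermatogonia) and -0.33 (peritubular). In plain libraries without Low AS replicate 1 they were -0.22 (sulfation), -0.10 (mitotic), -0.23 (Sertoli) and 0.25 (macrophages). Without 1 pig, Low AS replicate 1, they were -0.31 (Sertoli), -0.09 (macrophages), -0.19 (mitotic) and -0.50 (sulfation).

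Estimates changed sign in 19 named genes, of which ND4L and UCHL1 had an unadjusted p under 0.05 with all pigs. With carcass weight as a term CYP17A1 had -0.42, CYP11A1 -0.46 and INSL3 -0.46. With sow as a random effect CYP11A1 had -0.016, CYB5A 0.030, INSL3 -0.18 and EPB42 0.25, and by limma voom CYB5A had 0.023, INSL3 -0.14 and EPB42 0.28. The slope was 0.14 for CYB5A, 0.029 for NR5A1, 0.17 for FTL, 0.022 for FDXR and 0.066 for EPB42. In plain libraries FTL had 0.16, ND4L -0.013, ND4 -0.25, HBB -0.23 and EPB42 0.010. With the library set as a term FTL had 0.16, ND4L -0.015, ND4 -0.26, HBB -0.23 and EPB42 0.0072. With 31 pigs CYB5A had 0.029, FTL 0.13, HSD17B4 0.062, ND4L -0.18, ND4 -0.38, IGF1 -0.19, HBB -0.13 and EPB42 0.031. With the index as a term ND4L had -0.20, ND4 -0.20, IGF1 -0.12, CNN1 -0.018, EGFL7 -0.14 and KDR -0.28. In plain libraries without Low AS replicate 1 CYB5A had 0.32, FTL 0.32, FDXR 0.10, ND6 0.25, IGFBP7 0.11 and UCHL1 0.021, and by DESeq2 ND6 had 0.20. Without 1 pig CYB5A ranged from -0.16 to 0.29, CYP11A1 from -0.17 to 0.21, CYP17A1 from -0.24 to 0.22, EPB42 from -0.24 to 0.14, FTL from -0.21 to 0.13, INSL3 from -0.47 to 0.19, IGFBP7 from -0.50 to 0.22 and ND6 from -1.10 to 0.21. The depths of the plain libraries, from 1855174 to 5993637 counts, leave only a few counts for a gene at 1 CPM.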

Other observations

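The call of POSTN, the matrix protein periostin, depended on the pigs fitted and on the tool. Its level in High AS replicate 4 was 20.6 CPM, within the Low AS range, while the other 6 High AS pigs lay below it. Without that pig its log2 fold was -1.92 (SE 0.25, adjusted p = 0.0057 in edgeR's quasi-likelihood test). The fit with carcass weight as a term, which drops the same pig because it has no weight, gave -1.96 (SE 0.28, adjusted p = 0.0286). Without High AS replicate 4 the magnesium transporter SLC41A3, the glucose transporter SLC5A2 and ARMH4 also passed, at -1.39 (SE 0.26), -2.25 (SE 0.41) and -2.03 (SE 0.36) on the log2 scale. With all 14 pigs the adjusted p of POSTN was 0.239 in edgeR and 0.0435 in DESeq2.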
